A study of Mus musculus with 6 samples.

Results

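Genes of hormone-sensing luminal cells and genes induced by progesterone were described in mammary epithelial cells (MECs). They were Esr1, Pgr, Foxa1, Cited1, Greb1, Prom1, Tnfsf11, Tnfrsf11a and Calca, chosen by symbol in the deposited count table, which lists 55487 genes. All 9 were found. Of these, 8 were among the 17165 genes tested between the genotypes, and Calca did not pass the filter on low counts. The 6 libraries came from MECs of 3 wild-type BALB/c mice and 3 IL-21isoTg mice, all virgin females at 10 weeks of age. IL-21isoTg mice are BALB/c transgenic mice in which T cells express an isoform of interleukin-21 that stays on the membrane, and the wild-type mice lack the transgene. The promoter that drives the transgene is not given in the sources used here. MECs were prepared from digested mammary tissue by taking out leukocytes (CD45), endothelial cells (CD31) and fibroblasts (CD140a) with magnetic beads. The labels number the samples of each genotype from 1 to 3, and each is called a mouse here, since the methods describe independent mice and repeats. Per the methods, estrous stages were randomized, but the labels do not give the stage of each mouse, and its part in any result was not tested.

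Hormone-sensing luminal cells are the epithelial cells of the mammary duct that carry the estrogen receptor and the progesterone receptor. Estrogen acts through its receptor to induce the progesterone receptor, and progesterone then makes these cells secrete RANKL, the product of Tnfsf11. RANKL binds RANK, the product of Tnfrsf11a, on neighbouring luminal progenitor and basal cells and makes them divide. Calcitonin, encoded by Calca, is another product that mammary epithelium can make when progesterone is high, as in pregnancy. The levels of several of these genes are known to move with the estrous cycle. The study asked whether hormones could drive the change of the transgenic gland. It reported serum hormone levels that were alike in both genotypes, with estrogen tending to be lower in IL-21isoTg mice. Its methods describe serum assays of estradiol and prolactin, and none of progesterone. It also reported that removing the ovaries did not alter how often these mice developed tumors. The comparison made here was of the levels of the 9 genes between the genotypes.

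Promoter sequences are shown for the RANKL gene, for its receptor and for Calca, since the largest differences in level were seen in these genes. The sequences are the 250 bases before the transcription start in RefSeq (build GRCm38.p6), read 5′ to 3′ on the strand of the gene. Capitals mark matches to the motifs described after them.
Tnfsf11 (chr14:78308044-78308293, minus strand): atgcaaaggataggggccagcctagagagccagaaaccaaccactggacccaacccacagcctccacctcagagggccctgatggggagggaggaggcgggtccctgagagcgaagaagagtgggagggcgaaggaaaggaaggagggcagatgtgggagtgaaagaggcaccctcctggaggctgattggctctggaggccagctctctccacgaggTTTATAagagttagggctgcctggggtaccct
Tnfrsf11a (chr1:105780473-105780722, plus strand): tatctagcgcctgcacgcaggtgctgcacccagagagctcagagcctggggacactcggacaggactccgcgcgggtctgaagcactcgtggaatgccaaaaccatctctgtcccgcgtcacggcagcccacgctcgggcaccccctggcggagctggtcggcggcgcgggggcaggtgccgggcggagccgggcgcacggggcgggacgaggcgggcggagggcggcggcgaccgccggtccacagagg
Calca (chr7:114636358-114636607, minus strand): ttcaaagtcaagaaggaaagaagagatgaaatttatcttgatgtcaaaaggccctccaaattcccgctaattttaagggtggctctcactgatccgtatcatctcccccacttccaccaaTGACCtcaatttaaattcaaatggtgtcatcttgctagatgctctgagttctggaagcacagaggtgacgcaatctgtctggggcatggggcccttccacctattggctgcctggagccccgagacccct

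The capitals in the Tnfsf11 promoter are a TATA box (TATAAA, on either strand) 32 bases before the start. Those in the Calca promoter are the letters GGTCA on the reverse strand, a single arm of the estrogen response element, 130 bases before the start. The Tnfrsf11a promoter held no match to any of the motifs and had a GC content of 73.6%, against 60.4% for Tnfsf11, 48.0% for Calca and a median of 52.4% over 32841 RefSeq promoters. All 9 genes had a promoter in that table, and both strands of each were searched. The complete estrogen response element (GGTCANNNTGACC) was in 0.0639% of all promoters, the progesterone response element (GNACANNNTGTNC) in 0.387% and the cAMP response element (TGACGTCA) in 1.55%, and these motifs were in none of the promoters of the 9 genes. The single arm GGTCA, which lies within the complete element, was in 35.2% of all promoters and was found in those of Calca, Greb1, Foxa1 and Cited1. Foxa1 also held the forkhead motif TGTTTAC, 141 bases before its RefSeq start, which 3.17% of promoters had. That promoter (57546112 to 57546361) lies within the span of Foxa1 given below, downstream of the outermost start annotated there. Some promoters of Esr1, Greb1, Prom1 and Cited1 also lie within the gene spans given below. TATAAA was in 12.4% of promoters and was found in those of Tnfsf11, Pgr and Cited1. A single arm of the progesterone response element, TGTTCT, was in 16.1% of promoters and was found in a downstream promoter of Prom1. These matches describe letters only.

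The total count of a library was between 15902886 and 25719244, and 28839 genes had a count in at least 1 library. Levels are given as CPM, counts relative to the size of the library after TMM scaling, and a floor of 3 counts was worth 0.112 to 0.280 CPM. Counts of Il21 were checked first. They were 0, 0 and 37 in the wild-type libraries and 795, 216 and 131 in the IL-21isoTg libraries. The library labelled wild-type mouse 3 thus held a low level of Il21. Counts per gene do not separate reads of the transgene from those of the mouse's own Il21. The source of the counts in wild-type mouse 3 was not tested. Genes of the salivary gland, a tissue that the labels do not name, took 23.0%, 6.71% and 15.8% of the wild-type counts and 22.6%, 4.97% and 41.1% of the IL-21isoTg counts. Pan-luminal markers (7 genes such as Krt18 and Epcam) summed to 5821 to 7749 CPM in wild-type and 5242 to 9116 CPM in IL-21isoTg MECs. By edgeR's quasi-likelihood method and Benjamini-Hochberg correction, 0 of the 17165 genes (0%) had an adjusted p under 0.05, and the smallest was 0.126. An unadjusted p under 0.05 was found for 548 genes (3.19%) with higher and 451 genes (2.63%) with lower levels in IL-21isoTg MECs. By DESeq2, 72 of 17137 genes (0.42%) were higher at an adjusted p under 0.05.

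Among the 8 genes tested, none passed the adjusted threshold by edgeR. At an unadjusted p under 0.05, Tnfrsf11a was higher (1 of 8, against 3.19% of all genes tested) and Tnfsf11 was lower (1 of 8, against 2.63%). Without wild-type mouse 3, the one with Il21 counts, the log2 fold change was 1.06 for Tnfrsf11a, -4.62 for Tnfsf11 and -0.87 for Cited1. No transgenic mouse was as low as any wild-type mouse for Tnfrsf11a, and the same held for 951 of the genes tested (5.54%). The reverse order without overlap was seen for Tnfsf11 and Cited1, and for 1123 of the genes tested (6.54%). The median log2 fold change (IL-21isoTg minus wild-type) of the 8 genes was -0.38, and that of all genes tested was -0.02.

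**Figure D1:**
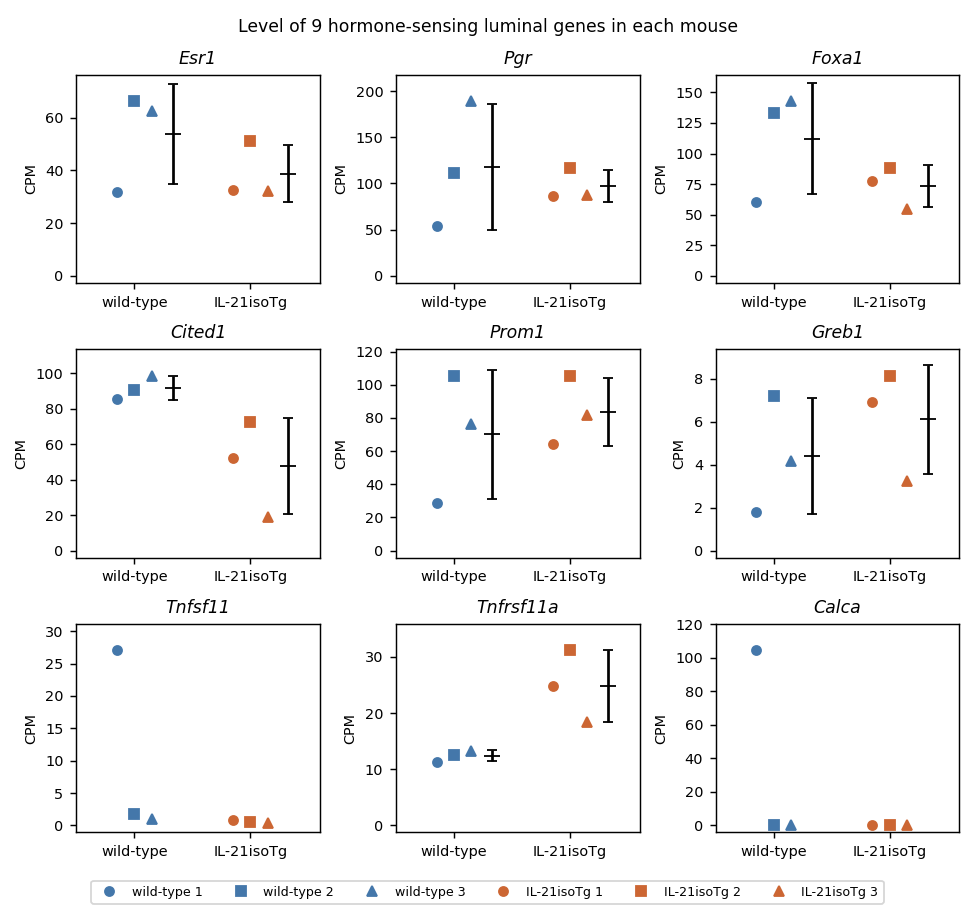
Level of the 9 genes in each mouse, in CPM on linear axes that differ between panels. Symbols are single mice, and the horizontal tick with its bar is the mean with the SD over 3 mice, left out for Tnfsf11 and Calca, where wild-type mouse 1 is far above all others. The genotypes do not overlap for Cited1, Tnfsf11 and Tnfrsf11a.

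Esr1 encodes estrogen receptor alpha, which binds DNA once estrogen is bound (ENSMUSG00000019768, GRCm38 chromosome 10, 4611593 to 5005614, plus strand). Its level was 31.9, 66.4 and 62.7 CPM in wild-type mice 1, 2 and 3, against 32.6, 51.2 and 32.4 CPM in IL-21isoTg mice. Wild-type mouse 1 had a level like that of IL-21isoTg mice 1 and 3, and the other wild-type mice were above all 3 IL-21isoTg mice. The means were 53.7 ± 18.9 CPM (SD, n = 3) and 38.7 ± 10.8 CPM (SD, n = 3). The log2 fold change was -0.47 (SE 0.31, unadjusted p = 0.167, adjusted p = 0.820 by edgeR), and the genotypes overlapped. Without wild-type mouse 1, it was -0.73 (unadjusted p = 0.0114, adjusted p = 0.670 by edgeR). The paper reported a tendency to more estrogen receptor in MECs of IL-21isoTg mice, which is opposite in direction to the values here. The age of those mice is not given in its main text.

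Pgr encodes the progesterone receptor and is itself induced by estrogen (ENSMUSG00000031870, chromosome 9, 8899833 to 8968611, plus strand). Wild-type mice had 53.5, 111 and 190 CPM and IL-21isoTg mice 86.8, 117 and 87.4 CPM. All 3 transgenic mice fell between the lowest and the highest wild-type mouse. The means were 118 ± 68.3 CPM and 97.0 ± 17.2 CPM (SD, n = 3 each), with a log2 fold change of -0.28 (SE 0.40, unadjusted p = 0.502, adjusted p = 0.913 by edgeR). Its sign depended on the wild-type mice, since the value was -0.62 without mouse 1 (unadjusted p = 0.0400, adjusted p = 0.711 by edgeR) and 0.24 without mouse 3, the one with Il21 counts.

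Foxa1 encodes a pioneer factor that opens chromatin for the estrogen receptor (ENSMUSG00000035451, chromosome 12, 57540628 to 57546916, minus strand). It had 60.2, 133 and 143 CPM in wild-type and 77.3, 88.4 and 54.4 CPM in IL-21isoTg mice. As for Esr1, wild-type mice 2 and 3 were above every IL-21isoTg mouse and wild-type mouse 1 was among them. The log2 fold change was -0.61 (SE 0.33, unadjusted p = 0.105, adjusted p = 0.809 by edgeR). Without wild-type mouse 1 it was -0.90 (unadjusted p = 0.00305, adjusted p = 0.503 by edgeR). For Esr1, Pgr and Foxa1, leaving out any other mouse gave no unadjusted p under 0.05 by edgeR. The genotypes overlapped in Esr1, Pgr and Foxa1, with an exact permutation p of 0.4, 0.9 and 0.3.

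Cited1 encodes a transcriptional coactivator that binds the estrogen receptor (ENSMUSG00000051159, chromosome X, 102247381 to 102252181, minus strand). The wild-type mice lay close to each other at 85.4, 90.5 and 98.8 CPM, and the IL-21isoTg mice had 52.3, 72.7 and 19.0 CPM. Every IL-21isoTg mouse was below every wild-type mouse, and mouse 3 was the lowest of them. The means were 91.6 ± 6.76 CPM and 48.0 ± 27.1 CPM (SD, n = 3 each). The exact two-sided permutation p was 0.1, the smallest that 3 mice against 3 can give. The log2 fold change was -0.93 (SE 0.41, unadjusted p = 0.0527, adjusted p = 0.809 by edgeR). IL-21isoTg mouse 3 is also the library with the most salivary gland counts. Without it the log2 fold change was -0.55 (unadjusted p = 0.0242, adjusted p = 0.896 by edgeR). With the salivary gland level as a covariate it was -0.89 (unadjusted p = 0.0195, adjusted p = 0.807 by edgeR). The unadjusted p was also under 0.05 by DESeq2 (0.0254, adjusted p = 0.591) and by limma-voom (0.0365). By edgeR, the same held with a replicate block (0.0315) and without IL-21isoTg mouse 2 (0.0120). In the other settings it was above 0.05, such as without the filter on low counts (0.120 by edgeR).

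Greb1 is induced by estrogen and encodes a cofactor of its receptor (ENSMUSG00000036523, chromosome 12, 16670615 to 16800886, minus strand). It had few reads, with 40, 150 and 93 counts in wild-type and 166, 219 and 35 counts in IL-21isoTg mice. Wild-type mouse 1 and IL-21isoTg mouse 3 were low, and the genotypes overlapped. The means were 4.40 ± 2.71 CPM and 6.11 ± 2.54 CPM (SD, n = 3 each), with a log2 fold change of 0.49 (SE 0.53, adjusted p = 0.881 by edgeR). Without wild-type mouse 1 it was 0.13. An antisense gene, Gm48140, shares 736 bases of exon with Greb1 and had up to 45 counts, and the counting may or may not have used the strand, so its reads may not be apart from those of Greb1.

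Prom1 encodes prominin-1, a membrane protein by which hormone-sensing luminal cells are sorted (ENSMUSG00000029086, chromosome 5, 43993620 to 44102032, minus strand). It had 28.5, 106 and 76.4 CPM in wild-type and 64.5, 105 and 81.7 CPM in IL-21isoTg mice. Wild-type mouse 1 was the lowest of all, and the genotypes overlapped. The log2 fold change was 0.26 (SE 0.42, adjusted p = 0.926 by edgeR) and changed sign to -0.11 without that mouse. The antisense gene Gm16401 shares 424 bases of exon with Prom1 and reached 149 counts, against at least 631 for Prom1. Since these are bulk samples, fewer hormone-sensing cells and less RNA per cell cannot be told apart for any of these genes.

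Tnfsf11 encodes RANKL, the signal that hormone-sensing cells send when progesterone is present (ENSMUSG00000022015, chromosome 14, 78277445 to 78308043, minus strand). Its counts were 600, 36 and 23 in wild-type and 19, 14 and 4 in IL-21isoTg mice, or 27.1, 1.73 and 1.03 CPM against 0.790, 0.521 and 0.373 CPM. Wild-type mouse 1 stood apart at 15.6 times the next mouse, and only 2 of the 28839 genes with a count exceeded that ratio in this library. The other wild-type mice were still above all 3 IL-21isoTg mice, at low counts. The log2 fold change was -4.08 (SE 1.26, unadjusted p = 0.0119, adjusted p = 0.809 by edgeR), and the exact permutation p was 0.1. Without wild-type mouse 1 the log2 fold change was -1.24 (unadjusted p = 0.0810, adjusted p = 0.732 by edgeR), so that most of its size rested on this mouse. The unadjusted p was also above 0.05 by limma-voom (0.167) and without the filter on low counts (0.0674), and DESeq2 gave no p.

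Tnfrsf11a encodes RANK, the receptor of RANKL (ENSMUSG00000026321, chromosome 1, 105780718 to 105847981, plus strand). Wild-type mice had 11.3, 12.5 and 13.3 CPM and IL-21isoTg mice 24.8, 31.2 and 18.4 CPM. Every transgenic mouse was above every wild-type mouse, and no mouse of either genotype stood apart. The means were 12.4 ± 0.986 CPM and 24.8 ± 6.41 CPM (SD, n = 3 each), a log2 fold change of 1.00 (SE 0.23). The unadjusted p was 0.00239 and the adjusted p was 0.670 by edgeR, while by DESeq2 the log2 fold change was 1.02 and the adjusted p was 0.0241. The exact permutation p was 0.1. The value stayed between 0.80 and 1.18 when each mouse was left out in turn, with an adjusted p of 0.345 to 0.994 by edgeR.

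The marker lists of cells that can carry RANK were read beside this. Luminal progenitor and alveolar markers (8 genes) summed to 1548 to 3485 CPM in wild-type and 4310 to 10850 CPM in IL-21isoTg mice. Of the 8, 4 were higher at an unadjusted p under 0.05, against 3.19% of all genes tested. These were the transcription factor Elf5, the milk protein genes Lalba and Csn3, and the iron carrier Trf. Rspo1 was lower, against 2.63% of all genes tested. The share of 3.19% also stands beside the higher genes of the lists that follow. Basal markers (9 genes) summed to 1843 to 2225 CPM and 2074 to 3479 CPM, with Cnn1 and Oxtr higher at that threshold. Macrophage markers (9 genes) summed to 18.9 to 28.7 CPM and 20.6 to 23.7 CPM. Of 7 tested, 2 had a log2 fold change above 0 and 5 below, with a median of -0.11. Itgam had at most 3 counts in any library, and Csf1r had 109 to 302. As for Tnfrsf11a, C1qa was higher in every IL-21isoTg mouse than in any wild-type mouse, at 9 to 37 counts (unadjusted p = 0.133 by edgeR). Fibroblast markers (9 genes) summed to 2022 to 3572 CPM and 4453 to 5128 CPM, with Col1a1, Col1a2 and Col3a1 higher. Endothelial markers (6 genes) summed to 88.4 to 221.9 CPM and 136.3 to 306.1 CPM, with a median log2 fold change of 0.77 and with Cdh5 (1.22) and Pecam1 (1.11) higher at that threshold. Adipocyte markers summed to 69.1 to 114.4 CPM and 90.9 to 250.2 CPM, with a median of 1.53 over the 4 of 6 genes tested and with Cidec and Lipe higher. The part of these cells in the level of Tnfrsf11a was not tested.

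**Figure D2:**
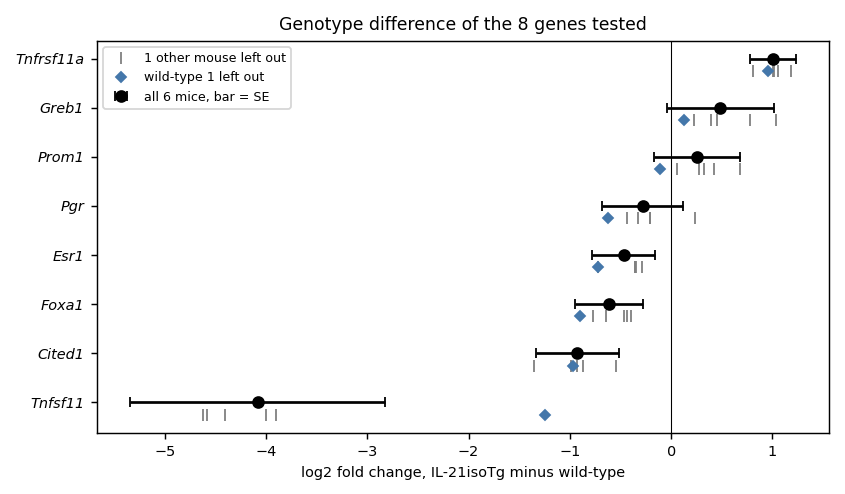
Log2 fold change of IL-21isoTg minus wild-type MECs for the 8 genes tested, by edgeR. Black points are the values over 6 mice with the SE as bars, grey ticks are values with another mouse left out, and blue diamonds are values without wild-type mouse 1. Tnfsf11 moves from -4.08 to -1.24 without that mouse, and Tnfrsf11a stays near 1.00.

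Calca encodes calcitonin and, by another splicing, the neuropeptide CGRP, which counts per gene do not separate (ENSMUSG00000030669, chromosome 7, 114631478 to 114636357, minus strand). It had 2314, 1 and 7 counts in wild-type and 0, 0 and 3 in IL-21isoTg mice. Nearly all reads thus came from wild-type mouse 1, at 104.4 CPM, which was 331 times the next mouse, and 0 of the 28839 genes with a count exceeded that ratio in this library. The other 5 mice were near or under the floor, and the exact permutation p between the genotypes was 0.2. The related gene Calcb had 57 counts in wild-type mouse 1 and at most 10 in the other mice, and its transcripts share 12 of the 1678 sequences of 50 bases of Calca (0.715%). Thyroid markers, 5 genes of an organ that makes calcitonin, summed to 20.8 CPM in wild-type mouse 1 and to 124.6 to 213 CPM in the other mice, nearly all from Slc5a5, the iodide transporter that mammary epithelium also uses. The thyroid factor Nkx2-1 had 0 counts in all 6 libraries, which allows up to 0.112 to 0.280 CPM. Peripheral nerve markers summed to 196 CPM in wild-type mouse 1, the lowest of the 6 libraries.

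Wild-type mouse 1 differed from the other wild-type mice across the 9 genes. It was the lowest wild-type mouse in 7 of the 8 genes tested, all but Tnfsf11, while it was lowest in 41.1% and highest in 40.9% of all genes tested. It was the lowest of all 6 mice in Esr1, Pgr, Greb1, Prom1 and Tnfrsf11a, 5 of 8, against 24.1% of all genes. Other genes of hormone-sensing luminal cells, 10 in all, were lowest in this wild-type mouse in 9 cases. Low levels in this mouse were not particular to hormone-sensing genes. It was the lowest wild-type mouse in 13 of 16 receptor coregulators and partners of FOXA1, and the lowest of all 6 mice in 8 of 9 fibroblast markers and 5 of 8 luminal progenitor and alveolar markers. Skeletal muscle markers summed to 10.3 CPM in this mouse and to 1.71 to 2.95 CPM in the others. The prolactin receptor gene Prlr had 179, 796 and 781 CPM in wild-type and 344, 533 and 348 CPM in IL-21isoTg mice. Stc2, which estrogen induces, had 97.3, 748 and 646 CPM against 417, 535 and 284 CPM. Ly6a, which encodes the surface protein Sca-1, had 50.2, 217 and 139 CPM against 111, 261 and 121 CPM. Rspo1, a WNT agonist induced by progesterone, went the other way, with 66.3, 8.41 and 16.8 CPM against 12.6, 8.75 and 7.09 CPM. Wild-type mouse 1 therefore held high Tnfsf11, Calca and Rspo1 beside low Prlr, Stc2, Pgr and Esr1. Genes more than 10 times above every other library numbered 3, 8 and 0 of 17165 for wild-type mice and 2, 0 and 0 for IL-21isoTg mice.

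**Figure D3:**
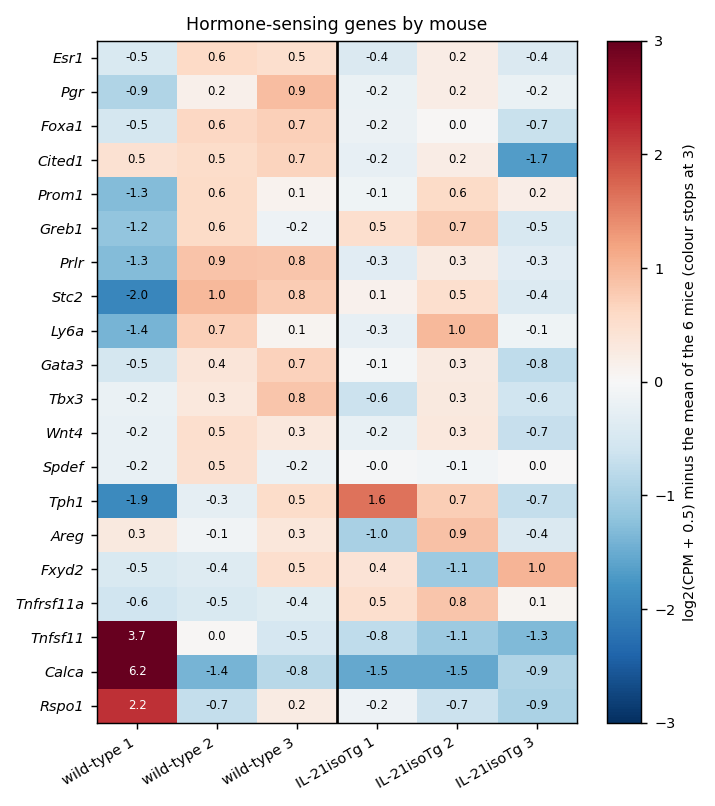
Heat map of the 9 genes, the 10 other hormone-sensing luminal genes and Rspo1 in the 6 mice, as log2(CPM + 0.5) minus the mean of the 6 mice. Red is above and blue below that mean, and the colour stops at 3. Wild-type mouse 1 is blue for most hormone-sensing genes and dark red for Tnfsf11, Calca and Rspo1.

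Levels per length of exon were used to order the genes by abundance, as CPM per kb of the union of annotated exons. Cited1 had the highest mean, at 52.2 ± 3.85 in wild-type and 27.4 ± 15.4 in IL-21isoTg MECs (SD, n = 3 each). Foxa1 followed with 33.7 ± 13.6 and 22.0 ± 5.21. In IL-21isoTg MECs these genes did not differ beyond their spread, and both were lowest in mouse 3, where Cited1 (10.8) was below Foxa1 (16.3). Next came Pgr with 13.8 ± 7.99 and 11.4 ± 2.01 and Prom1 with 9.78 ± 5.43 and 11.7 ± 2.86. Pgr and Prom1 did not differ beyond their spread. Esr1 was at 3.93 ± 1.39 and 2.83 ± 0.791, and Tnfrsf11a at 2.07 ± 0.165 and 4.14 ± 1.07. Within a library, Esr1 per kb was above Tnfrsf11a in every wild-type mouse and below it in every IL-21isoTg mouse. The ranges per kb of these receptors over the IL-21isoTg mice overlapped. The order in IL-21isoTg mice rests on the exon lengths used, 13661 bases for Esr1 and 5985 for Tnfrsf11a. In CPM, Esr1 was above Tnfrsf11a in every mouse. Greb1, at 0.459 ± 0.283 and 0.637 ± 0.265, was lower than the genes named so far. Tnfsf11 and Calca had medians of 0.408 and 0.0973 over the 6 mice, but in wild-type mouse 1 Calca reached 62.0, above the mean of every other gene in either genotype.

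**Figure D4:**
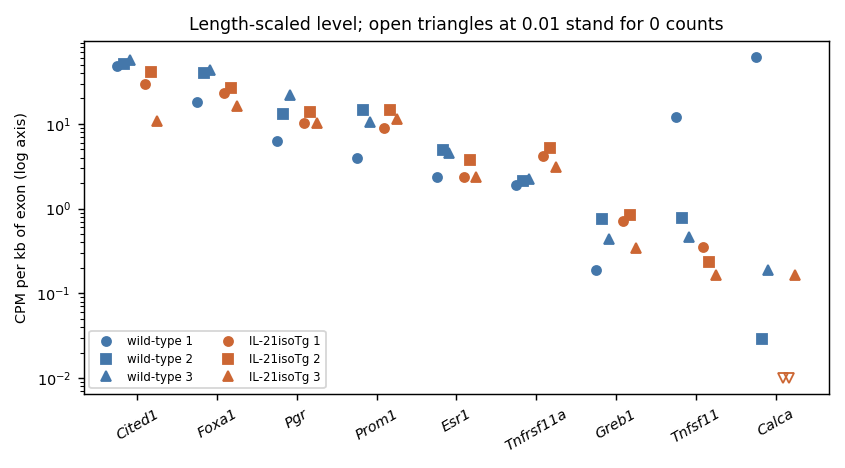
CPM per kb of exon of the 9 genes on a log axis, ordered by their median over 6 mice, with a symbol for each mouse. Open triangles at 0.01 stand for libraries with 0 counts of Calca. Tnfsf11 and Calca of wild-type mouse 1 stand far above the other mice.

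Ratios of counts within a library do not move with its scaling, so 8 of them were compared. Whether salivary gland tissue adds reads to either gene of a pair was not tested. At low counts the pseudocount makes a log ratio depend on depth. The ratio of Tnfsf11 to Tnfrsf11a, ligand to receptor, was 2.39, 0.138 and 0.0780 in wild-type and 0.0319, 0.0167 and 0.0203 in IL-21isoTg mice. All 3 transgenic mice were below all wild-type mice, by -3.67 on the log2 scale, with an exact permutation p of 0.1 and 0.48 after Benjamini-Hochberg adjustment over the 8 ratios. Leaving out wild-type mouse 1 gave -2.17, and the genotypes stayed apart. Both genes were chosen with these levels known, so this ratio is not independent of their own values. The ratio of Tnfsf11 to Pgr was 0.506, 0.0156 and 0.00546 against 0.00910, 0.00446 and 0.00427, and the genotypes overlapped. Its log2 difference was -2.58, and -0.67 without wild-type mouse 1.

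The ratio of Pgr to Esr1, a gene induced by the receptor over the receptor, was 1.68, 1.67 and 3.02 in wild-type and 2.66, 2.28 and 2.70 in IL-21isoTg mice. Wild-type mice 1 and 2 were low and mouse 3 was the highest of all. The log2 difference was 0.32 (exact permutation p = 0.4), and it was 0.60 without wild-type mouse 3 and 0.18 without either wild-type mouse 1 or 2. Foxa1 was 1.68 to 2.37 times Esr1 in every library, a ratio that varied little between libraries, with a log2 difference of -0.11 (exact permutation p = 0.6). Cited1 was 2.68, 1.36 and 1.58 times Esr1 in wild-type and 1.6, 1.42 and 0.588 times Esr1 in IL-21isoTg mice, and the ranges overlapped. The log2 difference was -0.70, and -0.25 without IL-21isoTg mouse 3. The ratio of Greb1 to Esr1 had a log2 difference of 1.02 (exact permutation p = 0.2), that of Pgr to Foxa1 0.43 and that of Calca to Pgr -4.65 (exact permutation p = 0.3 each). The last rests on wild-type mouse 1 and on the pseudocount, since 2 libraries had 0 counts of Calca, and it was -1.04 without that mouse and -4.09 with a pseudocount of 1. None of the 8 ratios had an adjusted p under 0.05, which 3 mice against 3 do not allow.

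**Figure D5:**
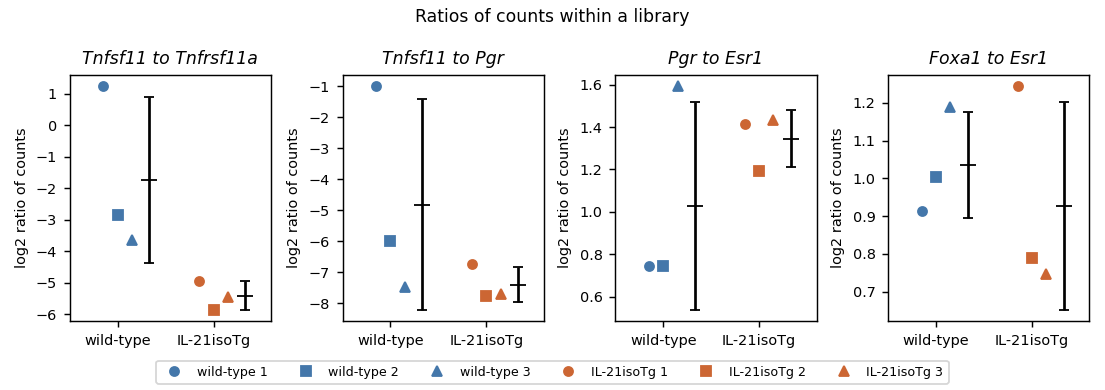
Log2 ratios of counts within a library for 4 pairs of genes, with a symbol for each mouse and the mean with the SD over 3 mice. The genotypes do not overlap for Tnfsf11 to Tnfrsf11a, and they overlap for the other pairs.

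Other genes of these pathways were counted from lists, in which none had an adjusted p under 0.05 by edgeR. The lists share genes such as Areg, Ccnd1, Wnt4 and Cxcl12, so their counts are not separate. Of the 10 other hormone-sensing luminal genes, none had an unadjusted p under 0.05, and their median log2 fold change was -0.21. The widest differences were those of Tph1, for serotonin synthesis (1.07), and Tbx3, a transcription factor of these cells (-0.62). Of 12 other estrogen-induced genes 10 were tested, with a median of -0.03. At an unadjusted p under 0.05, 2 were higher and 1 lower, against 3.19% and 2.63% of all genes tested. Xbp1, a factor of the secretory pathway, had 219.6, 216.3 and 259 CPM in wild-type and 418, 353 and 451 CPM in IL-21isoTg mice, a log2 fold change of 0.81 (unadjusted p = 0.00191, adjusted p = 0.645 by edgeR). The lysosomal protease gene Ctsd was at 0.51 and the cyclin gene Ccnd1 at -0.71. Tff1 and Tff3 had 0 counts in all libraries.

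Of 10 other progesterone-induced genes, 2 were higher and 2 lower at an unadjusted p under 0.05, against 3.19% and 2.63% of all genes tested. Their median was -0.03. The higher ones were Elf5, the factor of the alveolar lineage (0.70), and Fkbp5, a chaperone of steroid receptors (0.69). The lower ones were Rspo1 (-1.68, SE 0.69, unadjusted p = 0.0401 by edgeR), where wild-type mouse 1 carried most of the reads, and Ccnd1, which is also in the estrogen list. The calcitonin receptor gene Calcr had 0, 27 and 20 counts in wild-type and 24, 26 and 5 in IL-21isoTg mice, so the mouse with the highest Calca was the one with 0 counts of the receptor.

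Other steroid and related nuclear receptors had a median of 0.03, with the vitamin D receptor gene Vdr (0.82) and the estrogen-related receptor gene Esrra (0.63, SE 0.18, unadjusted p = 0.00857 by edgeR) higher at an unadjusted p under 0.05 among 10 tested. Of all genes tested, 3.19% were higher at that threshold. Esr2, for estrogen receptor beta, had 0, 6 and 1 counts against 2, 0 and 0 and was not tested. Of 16 coregulators and partners of FOXA1, Tfap2a was lower at that threshold (-0.39), against 2.63% of all genes tested, and the median was -0.15. Gata3, a factor that luminal cells need, was at -0.38 (adjusted p = 0.858 by edgeR).

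The RANK axis, 13 genes of signalling behind the receptor and its decoy, had a median of -0.11. Only Ccnd1 was lower at an unadjusted p under 0.05, against 2.63% of all genes tested. Traf3, an inhibitor of the noncanonical NF-κB route, was at -0.49. Wild-type mouse 1 was the highest of all 6 mice in 6 of the 13 (Traf2, Traf3, Nfkb1, Nfkb2, Rela and Relb), against 24.7% of all genes tested. Relb, for example, had 128, 41.3 and 67.6 CPM in wild-type and 59.7, 73.6 and 85.7 CPM in IL-21isoTg mice. Tnfrsf11b, for the decoy receptor osteoprotegerin, had 8.21, 4.37 and 1.26 CPM against 3.37, 5.10 and 8.30 CPM, and the genotypes overlapped. Of the calcitonin family and its receptors 8 of 10 were tested and none had an unadjusted p under 0.05, with a median of 0.20. The widest differences were those of Ramp2, for a subunit of its receptors, and Adm2, for a related peptide, both at 0.95.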

How the data were processed

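MEC libraries of 3 wild-type and 3 IL-21isoTg mice were compared by RNA-seq. The authors deposited raw read counts per gene and mouse, used here. A table of scaled counts was not used. Of a table of the authors' own comparison, the fold changes, test statistics and p-values were not used, only the gene positions. The submitters' processing notes name FastQC 0.11.7, Trimmomatic 0.38, HISAT2 2.1.0, SAMtools 1.9, featureCounts 1.6.3, DESeq2 1.24.0 and the build mm10, with no role, order or strand setting. How reads matching several genes were handled is not given in the sources used here, which bears on overlapping or related genes.

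Low genes were removed by filterByExpr (a minimum count of 10 and a minimum total of 15), and counts were scaled by TMM and tested with edgeR 4.0.16 (quasi-likelihood, robust) in R 4.3.3, with genotype as the only term and Benjamini-Hochberg adjustment over 17165 genes. DESeq2 1.42.0 and limma 3.58.1 were alternatives, beside other filters, scalings, a salivary gland covariate and leaving out mice. The script was tested on simulated data. Single values were compared with exact two-sided permutation tests, whose smallest p is 0.1. Ratios and plots on a log scale used a pseudocount of 0.5. Floors cover counting error only. The SE of a log2 fold change is its absolute value divided by the square root of the edgeR F statistic. The fit itself gives no SE. Positions came from GENCODE M21 (GRCm38), where all 9 genes have the start and end in the deposited comparison, and promoters from RefSeq. Python 3.11.15 and matplotlib 3.10.9 drew the figures.

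The 9 genes and the lists were chosen with earlier results of these data known. The text names all 9 genes, the genes of each pathway list with an unadjusted p under 0.05 and its 2 largest fold changes, and overlapping or related genes. Prlr, Stc2, Ly6a, Relb, Tnfrsf11b, Calcr, Esr2, Tff1 and Tff3, the marker genes of other cell types and the Il21 check were named after their values were seen. For Esr1, Pgr and Tnfsf11 it also names the 3 genes nearest in pattern, in the closing section.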

Additional observations from a re-analysis of the deposited data

How the results depend on the processing

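At an adjusted p under 0.05, genes with higher levels in IL-21isoTg MECs numbered 72 by DESeq2, 14 without a filter on low counts, 6 without the third mouse of both genotypes, and 0 to 6 when each mouse was left out in turn (6 without wild-type mouse 3). Genes with lower levels numbered 8 by DESeq2, 1 with the salivary gland level as a covariate, and 0 to 0 with a mouse left out. At an unadjusted p under 0.05, 332 to 902 genes were higher and 205 to 664 lower with a mouse left out, in both cases fewest without IL-21isoTg mouse 1 and most without IL-21isoTg mouse 2, and 180 were lower without the third mouse of both genotypes. The cause of these shifts was not tested. The unadjusted call of Tnfsf11 was lost by limma-voom, without a filter on low counts and without wild-type mouse 1.

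Pgr turned to 0.24 without wild-type mouse 3 and to 0.31 without the third mouse of both genotypes, and Prom1 to -0.11 without wild-type mouse 1. Tnfrsf11a passed an adjusted p of 0.05 only by DESeq2 (1.02, adjusted p = 0.0241), and was between 0.97 and 1.23 over 9 alternatives. Tnfsf11 was between -4.45 and -2.65 over 8 alternatives, and a filter of at least 10 counts in every mouse removed it. Without a filter, Calca had a log2 fold change of -9.25 (SE 4.11, adjusted p = 0.799 by edgeR), a value set by wild-type mouse 1. With each mouse left out in turn, log2 fold changes ranged from -0.73 to -0.29 for Esr1, -0.62 to 0.24 for Pgr, -0.90 to -0.40 for Foxa1, -1.35 to -0.55 for Cited1, 0.13 to 1.04 for Greb1, -0.11 to 0.68 for Prom1, -4.62 to -1.24 for Tnfsf11 and 0.80 to 1.18 for Tnfrsf11a.

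Mice with the same replicate number did not deviate together (correlations of -0.201, 0.0447 and -0.0728). The labels do not say what the numbers stand for. These correlations cannot tell whether mice of the same number were littermates or were processed together. With a replicate block, 253 genes were lower at an unadjusted p under 0.05, 0 genes passed the adjusted threshold, Tnfrsf11a was at 0.97 (adjusted p = 0.992 by edgeR) and Tnfsf11 at -2.98. Depth limits Tnfsf11 outside wild-type mouse 1, at 4 to 36 counts, Greb1 at 35 to 219 counts, and Calca, near the floor in 5 of 6 libraries.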

Other observations

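The genes nearest in pattern to Esr1, Pgr and Tnfsf11 were found by the root mean square difference of log2(CPM + 0.5), centred on the mean over the 6 mice, among 15387 genes with a mean of at least 1 CPM. This measure describes likeness over 6 libraries, which differ in depth and in their share of salivary gland genes, with no test. For Esr1 they were Gpr155 (0.092), Lmx1b (0.104) and Gm10254 (0.105), against a spread of 0.496 (SD) of Esr1 itself. Lmx1b, a transcription factor gene, had 51.1, 90.6 and 88.8 CPM in wild-type and 50.8, 66.8 and 44.5 CPM in IL-21isoTg mice.

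For Pgr they were Hspa1b (0.13), Tmem139 (0.147) and Hspa1a (0.152), against a spread of 0.60. Hspa1a and Hspa1b encode near-identical inducible HSP70 chaperones, so that reads may be shared between them. Hspa1b had 502.2, 1157 and 1658 CPM in wild-type and 688, 1118 and 734 CPM in IL-21isoTg mice, the same order of the wild-type mice as Pgr.

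For Tnfsf11 they were Serpinb11 (0.615), Shcbp1 (0.697) and Stra6l (0.733), against a spread of 1.85, a looser likeness. Serpinb11 and Stra6l were, with Tnfsf11, the 3 genes tested that exceeded every other library more than 10 times in wild-type mouse 1. Serpinb11 had 29.9 CPM in that mouse and 0.624 to 2.66 CPM in the others.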
